A study of Mus musculus with 2 samples.

Results

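The megalin-cubilin endocytosis genes are 5 genes, Lrp2, Cubn, Amn, Dab2 and Clcn5, taken by symbol from the 32285 genes counted in each library, and all 5 were found. They were described across classes of nuclei that were defined by marker genes outside this list, and across 2 ages of the developing mouse kidney. Nuclei came from whole kidneys of pooled male and female mice, in 1 library at E18.5 (a late embryonic day) and 1 library at P3 (postnatal day 3). The E18.5 mice carried floxed alleles of Myc and Mycn (Mycf/f;Mycnf/f) without Cre on a mixed background, and the P3 mice were labelled wild type on C57BL/6J, whereas the methods of the study give a mixed background at both ages. Age, genotype, strain and library therefore cannot be told apart, and with 1 library per age no p-value could be given. All intervals below are exact 95% intervals that cover counting error only.

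In the proximal tubule, filtered proteins are taken back from the tubular fluid by receptor-mediated endocytosis. Megalin (Lrp2) is a very large receptor that binds many ligands. Cubilin (Cubn) lies beside it on the brush border and, having no membrane span of its own, is held there by amnionless (Amn). The adaptor Dab2 links the tail of megalin to clathrin, and ClC-5 (Clcn5) is a chloride-proton exchanger of endosomes whose loss causes Dent disease, a disorder of protein reabsorption.

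At E18.5, 21270 nuclei with a median of 3132.5 UMIs (unique molecular identifiers, one per captured RNA molecule) were used, and at P3, 11765 nuclei with a median of 4534 UMIs. A class was named where at least 3 of its markers were raised, and 12 classes were named at each age. Proximal tubule-like nuclei numbered 1107 at E18.5, in 1 cluster, and 1304 at P3, in 2 clusters. Each of the 10 proximal tubule markers was higher there than in any other named class at both ages, and their summed level was 6484 CPM (the summed UMIs of a class, scaled to equal totals) at E18.5 and 11457 CPM at P3, against at most 545 and 1580 CPM in another class. The 5 genes were left out of the clustering. Unnamed clusters held 11126 nuclei at E18.5 and 4324 at P3. Among them was a P3 cluster of 759 nuclei that raised 9 of the 10 proximal tubule markers, but in which 91.0% of nuclei were called doublets. There were 69 barcodes shared between the libraries.

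Among the named classes, 4 of the 5 genes were highest in proximal tubule-like nuclei at E18.5, and 4 were at P3. Among all genes with at least 10 CPM in a class, 9.21% were highest there at E18.5 and 10.9% at P3. The exception at both ages was Clcn5. Against all other nuclei together, the same 4 genes were at least 2-fold higher at E18.5, where 10.1% of all genes tested were (28.1% were 2-fold apart in either direction), and at P3, where 12.6% were (33% in either direction).

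**Figure D1:**
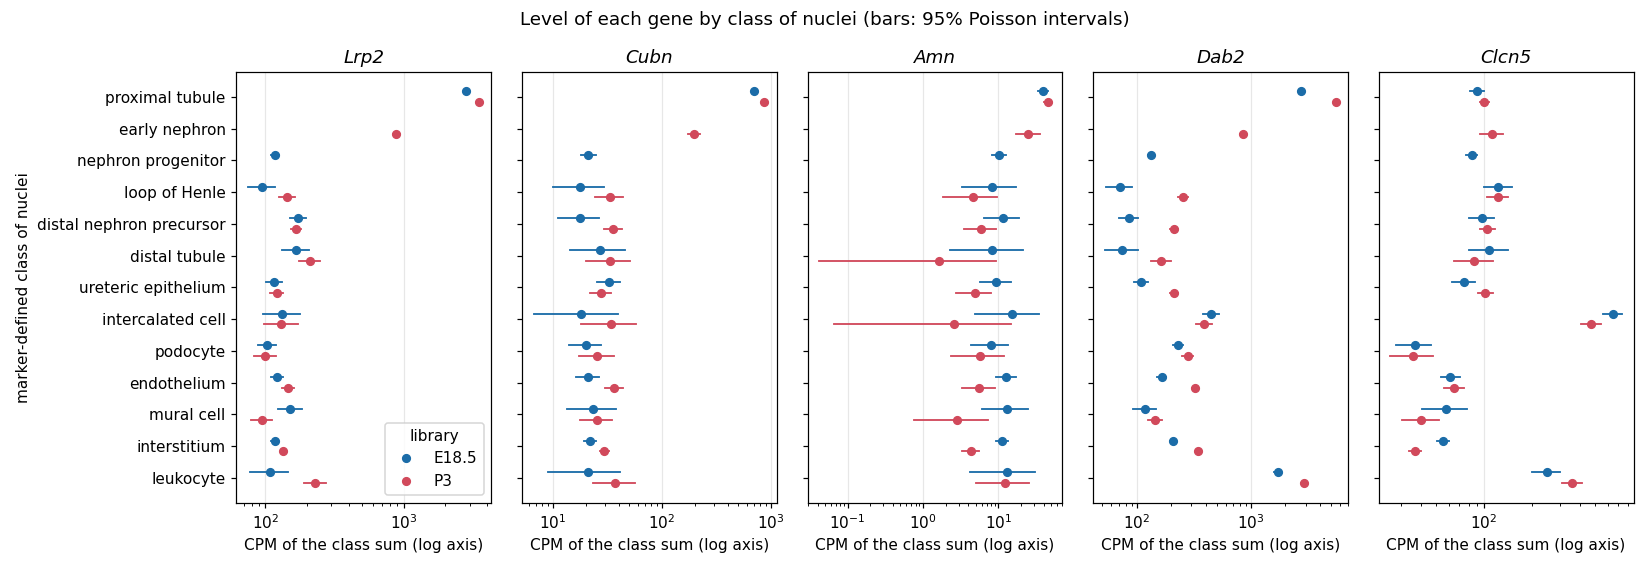
Level of each gene in each marker-defined class, as CPM of the summed UMIs on a log axis, with the E18.5 library in blue, the P3 library in red and 95% Poisson intervals as bars. Lrp2, Cubn and Amn peaked in the proximal tubule-like class, Dab2 was high there and in leukocyte-like nuclei, and Clcn5 peaked in intercalated cell-like nuclei, at 643 CPM at E18.5 and 471 CPM at P3.

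The start-site windows of Lrp2, Cubn and Amn are shown as those of the receptors and their anchor. Each runs from 250 bases before to 50 bases after a RefSeq start on GRCm38.p6, 5′ to 3′ on the strand of the gene. Capitals mark exact matches on either strand to CAAAGTCC (an HNF4 site) or CACGTG (an E-box).
Lrp2, chr2:69585980-69586279, minus strand: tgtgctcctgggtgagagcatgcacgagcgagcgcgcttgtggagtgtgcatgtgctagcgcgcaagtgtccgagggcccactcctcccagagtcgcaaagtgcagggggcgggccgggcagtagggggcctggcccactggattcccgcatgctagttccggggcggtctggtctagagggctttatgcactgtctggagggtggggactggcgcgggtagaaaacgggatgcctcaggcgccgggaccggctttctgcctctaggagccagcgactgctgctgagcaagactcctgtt
Cubn, chr2:13491827-13492126, minus strand: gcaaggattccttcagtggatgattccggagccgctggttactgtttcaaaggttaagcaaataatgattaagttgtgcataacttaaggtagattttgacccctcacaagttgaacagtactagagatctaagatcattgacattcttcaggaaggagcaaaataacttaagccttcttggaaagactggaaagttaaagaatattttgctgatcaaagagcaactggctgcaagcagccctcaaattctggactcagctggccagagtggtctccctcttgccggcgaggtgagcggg
Amn, chr12:111270846-111271145, plus strand: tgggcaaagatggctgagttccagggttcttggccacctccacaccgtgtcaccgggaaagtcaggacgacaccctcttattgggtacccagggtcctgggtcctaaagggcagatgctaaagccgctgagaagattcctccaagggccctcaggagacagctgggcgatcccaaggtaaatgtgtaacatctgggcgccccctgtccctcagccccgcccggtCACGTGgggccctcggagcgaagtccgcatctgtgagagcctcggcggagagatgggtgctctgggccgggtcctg
The window of Amn held 1 E-box. Of 32851 windows of this length, 7.15% held the E-box and 1.42% the HNF4 letters. Neither was found in the windows of Lrp2 and Cubn.

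Megalin showed one of the clearest steps between classes. Lrp2 (ENSMUSG00000027070, chr2:69424340-69586065 on the minus strand, mm10) reached 2795 CPM (interval 2745 to 2846) in proximal tubule-like nuclei at E18.5 and 3499 CPM (3461 to 3538) at P3. The 11 other classes of E18.5 ran from the loop of Henle-like class, with 94.6 CPM, up to distal nephron precursor-like nuclei, with 171 CPM. The proximal tubule-like level was thus 16.3 times (14.3 to 18.7) that of the next class at E18.5, and 42.2 times after the leukocyte-like level was subtracted as background. At P3 the next class was early nephron-like, at 887 CPM, a ratio of 3.94 (3.72 to 4.19), and the median of the 11 other classes was 143 CPM. Leukocyte-like nuclei, which should lack megalin, held 108 CPM at E18.5 and 230 CPM at P3, and the median class outside the proximal tubule stood at 4.20% and 4.09% of the proximal tubule-like level. Differences among those low classes were therefore not read as expression.

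Cubilin followed megalin closely. Cubn (ENSMUSG00000026726, chr2:13276338-13491813, minus strand) was at 702 CPM (677 to 727) in proximal tubule-like nuclei at E18.5 and at 866 CPM (847 to 885) at P3. In the other named classes of E18.5 it ranged from 17.7 to 32.8 CPM. The next class, ureteric epithelium-like nuclei, pooled clusters at 24.1 CPM (497 nuclei) and 79.0 CPM (84 nuclei, led by Upk1b). The ratio to that class was 21.4 (16.8 to 27.8). With background subtracted it was 58.0, where the leukocyte-like background rests on 8 UMIs. At P3 the early nephron-like class was again next, at 197 CPM, with a ratio of 4.39 (3.88 to 4.99). When called doublets were removed and nuclei clustered again, the ratios to the next class were 5.79 for Lrp2 and 6.24 for Cubn at E18.5, and 9.13 and 9.80 at P3, so their size depends on which classes were named. Over 25 groups of nuclei from both libraries, the log2 levels of Lrp2 and Cubn had a Pearson r of 0.98. The groups share their libraries, so this r is a description.

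The anchor of cubilin was far more weakly counted. Amn (ENSMUSG00000021278, chr12:111271095-111276426, plus strand) spans 5.33 kb, against 215 kb for Cubn, and levels were not compared between genes because lengths differ. It was at 39.5 CPM (33.7 to 45.9; 167 UMIs) in proximal tubule-like nuclei at E18.5 and at 45.2 CPM (40.9 to 49.8; 411 UMIs) at P3. An unnamed E18.5 cluster of 2717 nuclei, with raised hemoglobin genes and low depth, held 33.1 CPM (27.4 to 39.6; 118 UMIs). That interval overlaps the proximal tubule-like one, so Amn was highest there only among named classes. The highest other named class at E18.5, intercalated cell-like nuclei, stood at 15.1 CPM from 5 UMIs. The ratio to it was 2.61, with a wide interval of 1.10 to 8.16. With background subtracted the ratio was 13.5, but only 1.96 CPM was then left in that class. The leukocyte-like background also rests on 5 UMIs, so nothing is read from this value. At P3 the ratio to early nephron-like nuclei was 1.80 (1.26 to 2.65), and 3.32 with called doublets removed. The median other class held 28.3% of the proximal tubule-like level at E18.5 and 10.8% at P3, so the contrast of Amn was shallower than that of its partner.

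The adaptor had 2 high classes. Dab2 (ENSMUSG00000022150, chr15:6299788-6440712, plus strand) was at 2725 CPM (2675 to 2775) in proximal tubule-like nuclei at E18.5 and at 5535 CPM (5486 to 5583) at P3. In leukocyte-like nuclei, where it is known from macrophages, it was at 1708 CPM (1579 to 1845) at E18.5 and at 2902 CPM (2763 to 3046) at P3. The proximal tubule-like level was 1.60 times (1.47 to 1.73) the leukocyte-like level at E18.5 and 1.91 times (1.82 to 2.01) at P3. With 20 neighbours in the clustering, the E18.5 ratio was 1.05. Leukocyte-like nuclei exceeded endothelium-like nuclei 10.4-fold (9.25 to 11.6) and 9.01-fold (8.32 to 9.77) for Dab2. The 7 leukocyte markers summed to 83.7 CPM in proximal tubule-like nuclei at E18.5, against 3718 CPM in leukocyte-like nuclei, and to 55.5 CPM against 5333 CPM at P3. Intercalated cell-like nuclei came next at E18.5, at 447 CPM, 4.09 times (3.30 to 5.06) the level of ureteric epithelium-like nuclei. The latter pooled a cluster of 497 nuclei at 96.0 CPM with another of 84 nuclei, led by Upk1b, at 180 CPM. At P3 early nephron-like nuclei came next after leukocyte-like nuclei, at 856 CPM. Intercalated cell-like nuclei stood at 388 CPM, 1.82 times (1.51 to 2.18) the ureteric epithelium-like and 1.2 times (1.01 to 1.43) the endothelium-like level, and did not differ beyond the interval from interstitium-like nuclei (1.13, 0.95 to 1.33). With the endothelium-like level subtracted as background they held 282 CPM at E18.5 and 65.7 CPM at P3.

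The exchanger of the endosome did not follow its partners. Clcn5 (ENSMUSG00000004317, chrX:7153810-7319358, minus strand) was at 90.5 CPM (81.7 to 100.1) in proximal tubule-like nuclei at E18.5 and at 100.2 CPM (93.8 to 107) at P3. Intercalated cells are acid-base transporting cells of the collecting duct, and in the 91 intercalated cell-like nuclei of E18.5 it reached 643 CPM (560 to 736), 7.10 times (5.98 to 8.42) the proximal tubule-like level. In the 69 such nuclei at P3 it was at 471 CPM (405 to 546), a ratio of 4.71 (3.99 to 5.53). Leukocyte-like nuclei were second among the named classes at both ages, at 247 and 358 CPM, and loop of Henle-like nuclei followed, at 123 and 122 CPM. The interstitium-like class of E18.5 pooled a cluster of 3090 nuclei at 47.4 CPM with another of 129 nuclei, led by Ebf2, at 216 CPM (175 to 264). An unnamed P3 cluster of 48 nuclei, also led by Ebf2, held 267 CPM (207 to 338). The lowest class at both ages was podocyte-like, at 36.6 and 35.5 CPM. Between loop of Henle-like and endothelium-like nuclei no neighbours in the order differed beyond their intervals at either age, and the proximal tubule-like class stood among them. It did differ from both ends of this run. Its level was 0.74 times (0.59 to 0.92) the loop of Henle-like level at E18.5 and 0.82 times (0.70 to 0.97) at P3. Against endothelium-like nuclei it was 1.47 times (1.24 to 1.75) and 1.55 times (1.33 to 1.82) as high. At E18.5 distal nephron precursor-like nuclei, just above the proximal tubule-like class, had 1.07 times (0.87 to 1.31) its level.

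The share of nuclei with a UMI gave the same picture at matched depth. After each nucleus was thinned to 1000 UMIs, which left out 4 proximal tubule-like nuclei at E18.5 and 1 at P3, Lrp2 was detected in 87.3% (85.2 to 89.2) of the E18.5 proximal tubule-like class and in 92.9% (91.4 to 94.3) at P3. In endothelium-like nuclei it was detected in 12.6% and 15.5%. For Cubn, the shares were 46.8% and 53.1% in proximal tubule-like nuclei and 2.38% and 4.4% in endothelium-like nuclei. Dab2 was found in 86.0% and 94.6% of proximal tubule-like and in 68.6% and 69.4% of leukocyte-like nuclei, against 13.3% and 27.0% of endothelium-like nuclei. In early nephron-like nuclei of P3, Lrp2 was detected in 50.8%, Cubn in 14.3% and Dab2 in 46.6%. For Amn, the shares were 3.81% and 4.84%, against 1.74% and 0.628% in endothelium-like nuclei. Clcn5 was detected in 28.6% (19.6 to 39.0) and 34.8% (23.7 to 47.2) of intercalated cell-like nuclei, and in 8.16% and 8.14% of proximal tubule-like nuclei. Without thinning, at medians of 3528 UMIs in proximal tubule-like and 2822 UMIs in endothelium-like nuclei at E18.5, Lrp2 was detected in 98.9% and 30.0%, and at P3, at medians of 6130.5 and 3442.5 UMIs, in 99.5% and 41.6%.

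Joint detection was counted for the 10 pairs of genes in thinned proximal tubule-like nuclei. Nuclei with both Lrp2 and Cubn numbered 465 of 1103 at E18.5, 1.03 times (0.94 to 1.13) the number expected from independent detection, and 654 of 1303 at P3, 1.02 times (0.94 to 1.10). Over the 10 pairs, the ratio ran from 0.83 to 1.06 at E18.5 and from 0.78 to 1.05 at P3, and every interval included 1. These are Poisson intervals of the joint count, which are wider than its spread once the counts of both single genes are fixed. An interval that includes 1 therefore does not show independent detection. Lrp2 was found in 87.3% and 92.9% of these nuclei and Dab2 in 86.0% and 94.6%. The ratio of any pair with either gene could therefore hardly exceed 1, and nothing is concluded from those pairs. For the pairs among Cubn, Amn and Clcn5, no excess beyond these wide intervals was seen, and independence is not concluded from them.

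Within the proximal tubule-like class, the genes varied to different degrees between sub-clusters. The highest and lowest sub-clusters were picked for each gene by its level. The ratio between them therefore cannot fall below 1, and its interval does not cover that choice. The highest level of Dab2 was 2.19 times (2.05 to 2.34) its lowest at E18.5, an interval that overlaps that of Lrp2 (2.01, 1.90 to 2.13), and 4.87 times (4.50 to 5.29) at P3, where Lrp2 was at 1.94. The ratio was 1.69 and 1.46 for Cubn, and 1.06 and 1.92 for Clcn5. For Amn it was 1.63 (0.96 to 2.88) and 2.82 (1.22 to 7.29), so that its P3 interval covers the value of Dab2. At E18.5, 4 sub-clusters were found. Sub-cluster 1 (269 nuclei) raised 4 of 6 immature markers, Cdh6, Grid1, Stxbp5l and Dmd, and no maturing marker, and is called immature. Sub-cluster 4 raised 6 of 10 maturing markers, among them the organic anion transporters Slc22a6 and Slc22a8, and is called maturing. Sub-cluster 2 (352 nuclei) was led by Slc5a12 and raised Slc5a2, the glucose transporter of the early segment, and sub-cluster 3 (153 nuclei) was led by Aadat and raised Slc7a13, an amino acid transporter of the late segment. At P3, none of 7 sub-clusters raised enough markers of either list to be so called.

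**Figure D2:**
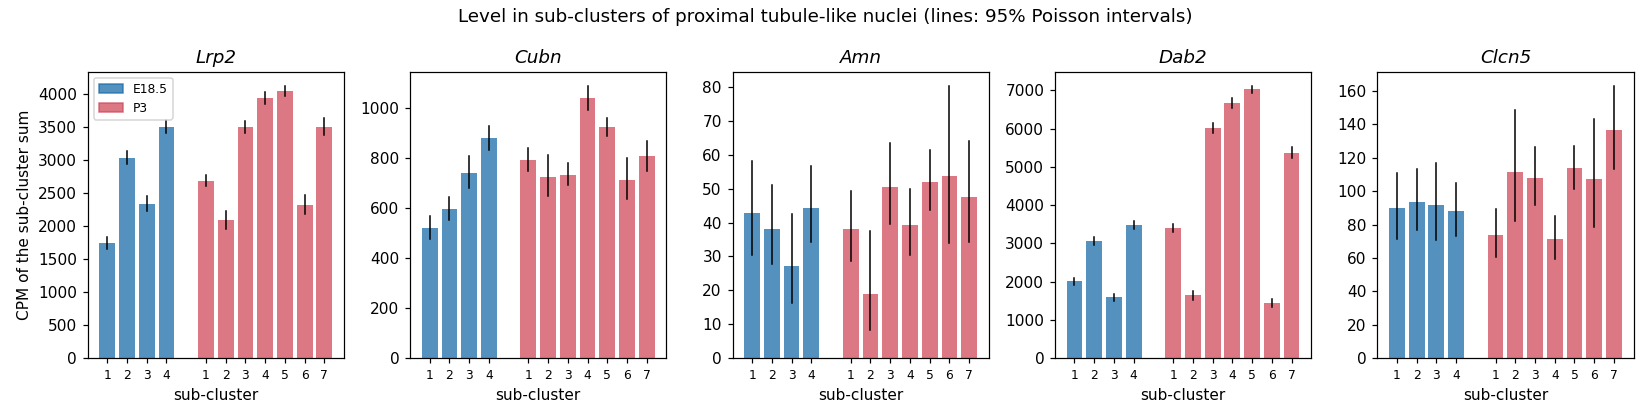
Level of each gene in the sub-clusters of proximal tubule-like nuclei, as CPM of the summed UMIs, for 4 sub-clusters at E18.5 (blue) and 7 at P3 (red), with 95% Poisson intervals as lines. Dab2 spanned 1442 to 7024 CPM at P3, while Cubn spanned 715 to 1042 CPM.

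Megalin was lowest in the immature sub-cluster. At E18.5, Lrp2 was at 1744 CPM in sub-cluster 1, 3035 CPM in 2, 2336 CPM in 3 and 3508 CPM in 4, a ratio of maturing to immature of 2.01 (1.90 to 2.13). Cubn was at 521, 599, 742 and 881 CPM in the same order, with a ratio of 1.69 (1.52 to 1.88), and Dab2 at 2009, 3054, 1589 and 3476 CPM, with a ratio of 1.73 (1.64 to 1.83). Amn (1.04, 0.69 to 1.58) and Clcn5 (0.98, 0.74 to 1.31) had intervals that included 1. By the 2-fold call, 1 of the 5 genes was higher in maturing nuclei, where 6.22% of all genes tested were (17.7% in either direction). That count was 3 of 5, with Lrp2, Cubn and Dab2 past 2-fold, in clusters drawn with Leiden or with 20 neighbours. In these, Lrp2 was 3.15 and 4.36 times as high. No share of all genes is given for these clusters, so their count cannot be set against the 6.22%.

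A second view set the whole class against a cluster of the library that raised all 6 immature markers and no maturing one. At E18.5 this was cluster 8 (1473 nuclei, led by Sim2 and Lgr5), which also raised 3 of 5 distal nephron precursor and 4 of 7 early nephron markers and was left unnamed, so it was not a proximal cluster by its own markers. At P3, cluster 15 did the same (238 nuclei, led by Grid1 and Stxbp5l and named early nephron-like). In cluster 8, Lrp2 was at 303 CPM, Cubn at 59.5 CPM, Amn at 16.1 CPM, Dab2 at 266 CPM and Clcn5 at 113 CPM, so all but Clcn5 lay below proximal tubule-like nuclei, by ratios of 9.24 (8.76 to 9.75), 11.8 (10.5 to 13.3), 2.45 (1.87 to 3.24) and 10.2 (9.68 to 10.8). Clcn5 was slightly lower in the proximal tubule-like class (ratio 0.80, 0.70 to 0.91). Thus 4 of 5 genes were at least 2-fold higher, where 9.56% of all genes tested were, with 14.1% lower and 23.6% in either direction. At P3, cluster 9 (983 nuclei, 8 of 10 maturing markers raised) stood for the maturing state. It exceeded cluster 15 in Lrp2 by 4.32-fold (4.08 to 4.59), in Cubn by 4.51-fold (3.98 to 5.13) and in Dab2 by 7.55-fold (7.12 to 8.02), and Amn was 1.90 times as high (1.33 to 2.81). Clcn5 did not differ beyond its interval (0.94, 0.78 to 1.13). This gave 3 of 5 genes at P3, where 11.7% of all genes tested were as much higher and 30.8% were apart in either direction. Without called doublets, Cubn was 2.35 times as high and still past 2-fold. With all P3 proximal tubule-like nuclei, cluster 9 included, against cluster 15 the count was 3 of 5. Lrp2 was at 3.94-fold, Cubn at 4.39-fold and Dab2 at 6.47-fold. Of all genes tested, 11.3% were higher, 16.4% lower and 27.7% apart in either direction. Cluster 15 is the whole early nephron-like class, so the values of Lrp2 and Cubn repeat their ratios to the next class above and are no separate result. Cluster 12 at P3 raised 3 immature and 4 maturing markers. With it on the immature side the count was 1 of 5, with Dab2 at 3.10-fold and Lrp2 just under 2-fold. No share of all genes is given for that setting, so its count cannot be set against the shares above.

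**Figure D3:**
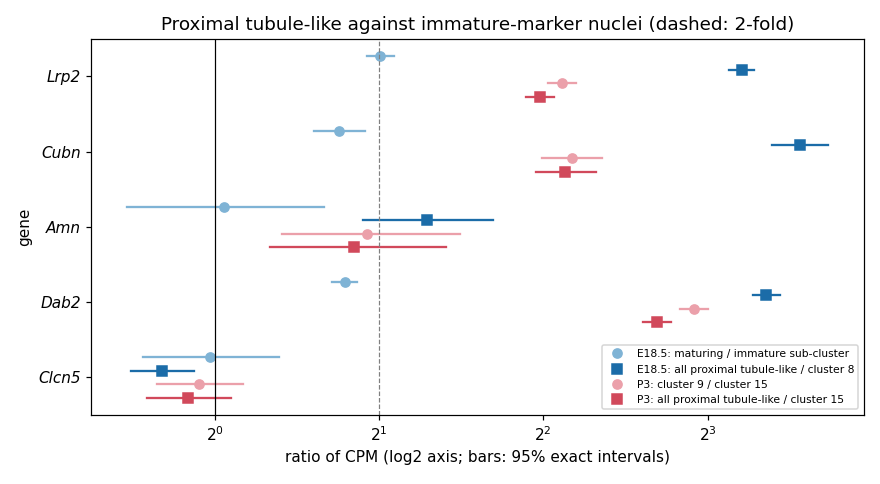
Ratio of CPM between proximal tubule-like nuclei and nuclei that raised immature markers for each gene on a log2 axis, with exact 95% intervals as bars, the solid line at 1 and the dashed line at 2-fold. Lrp2, Cubn and Dab2 lie above 1 in all 4 comparisons, and Clcn5 lies at or below 1, with intervals from 0.70 to 1.31.

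Dab2 differed between sub-clusters that raised Slc5a2 and sub-clusters that raised Slc7a13. At P3, sub-clusters 3 (276 nuclei) and 5 (318 nuclei) raised Slc5a2, and sub-clusters 1 (199 nuclei), 2 (48 nuclei) and 6 (76 nuclei) raised Slc7a13. Sub-cluster 2 was led by cell division genes such as Top2a, and the leading genes of sub-cluster 6 included Slc12a1 of the loop of Henle. In sub-cluster 6, 17.1% of nuclei were called doublets, against at most 8.33% in any other P3 sub-cluster. Sub-clusters 2 and 6 also raised the immature markers Cdh6 and Dmd. They had Slc34a1, the phosphate transporter of the brush border, at 202 and 168 CPM, against 1860 CPM in sub-cluster 1. Sub-cluster 3 raised the immature markers Grid1 and Stxbp5l. Dab2 was at 6013 and 7024 CPM in the first pair, and at 3399, 1642 and 1442 CPM in the other 3. Sub-cluster 4 (225 nuclei), led by Cyp4a14, a fatty acid hydroxylase, was at 6665 CPM, and sub-cluster 7 (162 nuclei), led by Mrc1 and Hdc, was at 5373 CPM. Mrc1 is a gene of macrophages and stood at 63.2 CPM there. The other leukocyte markers were Adgre1 at 12.4, Csf1r at 10.2, Ptprc at 9.03, Cx3cr1 at 5.64, C1qb at 4.52 and C1qa at 2.26 CPM. Adgre1 was at 14.0 CPM in sub-cluster 6 and at most 4.15 CPM in sub-clusters 1 to 5. The part of leukocyte RNA in the Dab2 level of sub-cluster 7 was not tested. Taken as groups, the Slc5a2-raised nuclei had 2.45 times (2.39 to 2.52) the Dab2 level of the Slc7a13-raised nuclei at P3, and 1.92 times (1.80 to 2.06) at E18.5. The same ratio was 1.54 (1.49 to 1.58) and 1.30 (1.22 to 1.38) for Lrp2. For Cubn it was 1.12 (1.06 to 1.19) at P3 and 0.81 (0.72 to 0.91) at E18.5, so Cubn was higher in the Slc7a13-raised nuclei at E18.5, where Dab2 was lower. These groups of sub-clusters were chosen after their values were seen, and at P3 segment and immaturity cannot be told apart in sub-clusters 2 and 6.

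Between the ages, Dab2 alone passed 2-fold in proximal tubule-like nuclei. Its level at P3 was 2.03 times (1.99 to 2.07) that at E18.5. Lrp2 was 1.25 times (1.23 to 1.28) and Cubn 1.23 times (1.18 to 1.29) as high at P3, and the intervals of Amn (1.15, 0.95 to 1.38) and Clcn5 (1.11, 0.98 to 1.25) included 1. Thus 1 of 5 genes was at least 2-fold apart, where 17.7% of all genes tested were. With the doublet-rich P3 cluster kept in the class, no gene passed 2-fold, Dab2 fell to 1.46 times, and Lrp2 and Cubn turned to 0.91 and 0.89. No share of all genes is given for that setting. With 20 neighbours Cubn was 1.90 times as high at P3. In the Slc5a2-raised sub-clusters the P3 level of Dab2 was 2.19 times (2.11 to 2.26) that of E18.5, and in the Slc7a13-raised sub-clusters 1.71 times (1.60 to 1.83), while Cubn was at 1.44 (1.32 to 1.56) and 1.03 (0.94 to 1.14).

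Dab2 was also higher at P3 outside the proximal tubule. The ratio of P3 to E18.5 was 1.70 (1.55 to 1.86) in leukocyte-like, 1.67 (1.58 to 1.76) in interstitium-like and 1.95 (1.76 to 2.17) in endothelium-like nuclei, and 3.57 (2.71 to 4.76) in loop of Henle-like nuclei. In intercalated cell-like nuclei it was 0.87 (0.69 to 1.10). The proximal tubule-like level of Dab2 rose alongside, and the part of free RNA in the low classes was not tested. Amn went the other way in interstitium-like nuclei (0.39, 0.28 to 0.54) and endothelium-like nuclei (0.44, 0.23 to 0.79), while in proximal tubule-like nuclei its interval included 1. Clcn5 was at 0.73 (0.60 to 0.90) in intercalated cell-like nuclei and at 1.45 (1.13 to 1.87) in leukocyte-like nuclei.

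**Figure D4:**
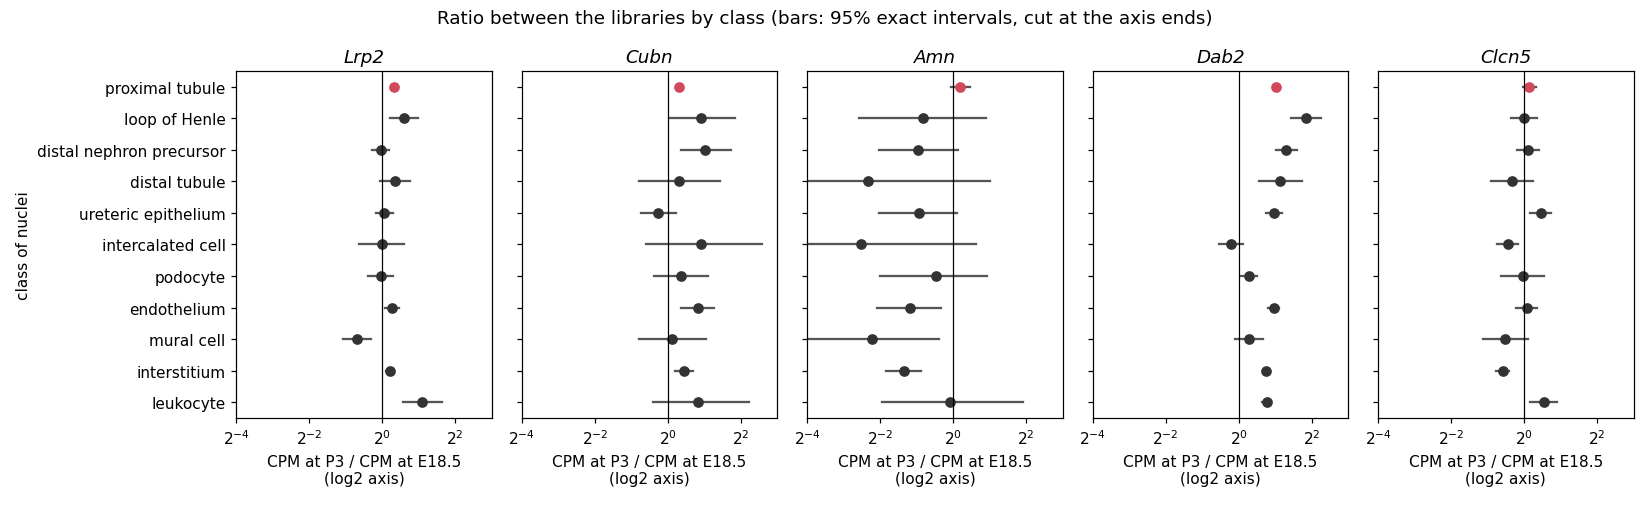
Ratio of the CPM at P3 to that at E18.5 for each gene in the 11 classes named at both ages, on a log2 axis with exact 95% intervals as bars, the proximal tubule-like class in red and the line at 1. By point estimate, 10 of the 11 classes lie above 1 for Dab2, and only the proximal tubule-like class does for Amn. The Amn interval includes 1 in that class (0.95 to 1.38) and in most others, and the Dab2 interval does in mural cell-like nuclei (0.94 to 1.60).

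Gene length moved with the difference between the libraries. In proximal tubule-like nuclei, the median log2 ratio of P3 to E18.5 was -0.63 over the 2148 genes with the shortest spans and 0.13 over the 2149 genes with the longest. Amn lies in the shortest group, at a log2 ratio of 0.20, and the other 4 genes lie in the longest, Dab2 at 1.02, Lrp2 at 0.32, Cubn at 0.30 and Clcn5 at 0.15. The matrices were written by different Cell Ranger releases, and the part of this in the ratios was not tested.

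The wider endocytic machinery was followed in a list of 58 genes in 7 groups. At P3, 18 of the 56 genes tested were at least 2-fold higher in cluster 9 than in cluster 15, against 11.7% of all genes tested, and 2 were lower, against 19.1%. The median log2 ratio of the list was 0.57, beside -0.28 for all genes tested in that comparison. The group counts at P3 below come from the same comparison, so the same 11.7% and 19.1% stand beside them. Each group holds 12 genes or fewer. At E18.5, between the maturing and immature sub-clusters, 5 of 58 were higher, against 6.22% of all genes tested, and none was lower, with a median log2 ratio of 0.16 beside -0.21 for all genes tested.

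Endosome acidification held the largest ratios. Slc9a3, the sodium-proton exchanger NHE3, was at 327 CPM in cluster 9 and 16 CPM in cluster 15, a ratio of 20.4 (13.3 to 33.1), and Atp6v0a4, a proton pump subunit, was 10.9 times as high (8.61 to 14.0). Of this group's 9 genes, 4 were higher and none lower at P3, and at E18.5 Slc9a3 (9.14, 5.32 to 17), Atp6v0a4 (2.53, 2.14 to 3.01) and Atp6v1a (2.02, 1.65 to 2.5) were higher. The lowest ratios of the group belonged to Atp6v0a1 (0.69, 0.55 to 0.87) and Clcn4 (0.95, 0.66 to 1.39), which did not pass 2-fold.

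Among early and recycling endosome genes, 5 of 12 were higher at P3, where 11.7% of all genes tested were. Rab5c, a small GTPase of early endosomes, was 3.69 times as high (2.57 to 5.47) and Ehd1, a recycling factor, 3.11 times (1.94 to 5.33), while Rab5a was at 0.61 (0.51 to 0.74) and Appl1 at 0.67 (0.55 to 0.82). Of the clathrin coat genes, 1 of 12 was higher. This was the light chain Cltb (3.96, 2.23 to 7.78), followed by the adaptor subunit Ap2a2 (1.57, 1.36 to 1.81), and the lowest were Ap2s1 (0.53, 0.31 to 0.95) and Ap2b1 (0.76, 0.64 to 0.90). Of the chaperone, adaptor and motor genes, 1 of 5 tested was higher, Tom1 (3.15, 2.23 to 4.6), with Numb next (1.40, 1.25 to 1.57). Gipc1 (0.66, 0.46 to 0.98) and Myo6, the motor that moves coated vesicles, had the lowest ratios. Against all other nuclei, however, Myo6 was at least 2-fold higher in proximal tubule-like nuclei at both ages.

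The lysosome genes Lgmn (5.60, 4.16 to 7.71) and Ctns (2.51, 1.56 to 4.32) were higher, 2 of 8, and Ctsd (0.78, 0.54 to 1.18) and Lamp1 (1.24, 0.99 to 1.57) had the lowest ratios. Of other receptors, 3 of 6 tested were higher, among them Vldlr (3.13, 2.39 to 4.16) and the folate receptor Folr1 (2.53, 2.23 to 2.89), and 2 were lower, Lrp1 (0.45, 0.30 to 0.69) and Scarb2 (0.49, 0.32 to 0.75). Lrp1, a relative of megalin, was also lower in proximal tubule-like nuclei than in all others, at 0.20 times at E18.5 and 0.14 times at P3. Of 4 transcription factors, Ppara (8.94, 6.51 to 12.6) and Tfeb (2.39, 1.69 to 3.47) were higher and none was lower. Between the ages in proximal tubule-like nuclei, 3 of 57 genes were at least 2-fold higher at P3, Slc9a3 (3.19, 2.85 to 3.59), Tfeb (2.11, 1.75 to 2.57) and Cltb (2.04, 1.54 to 2.74), and 5 were lower, among them Ap2s1, Rab11a, Ctsd and Cd320, where 4.82% and 12.8% of all genes tested were.

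**Figure D5:**
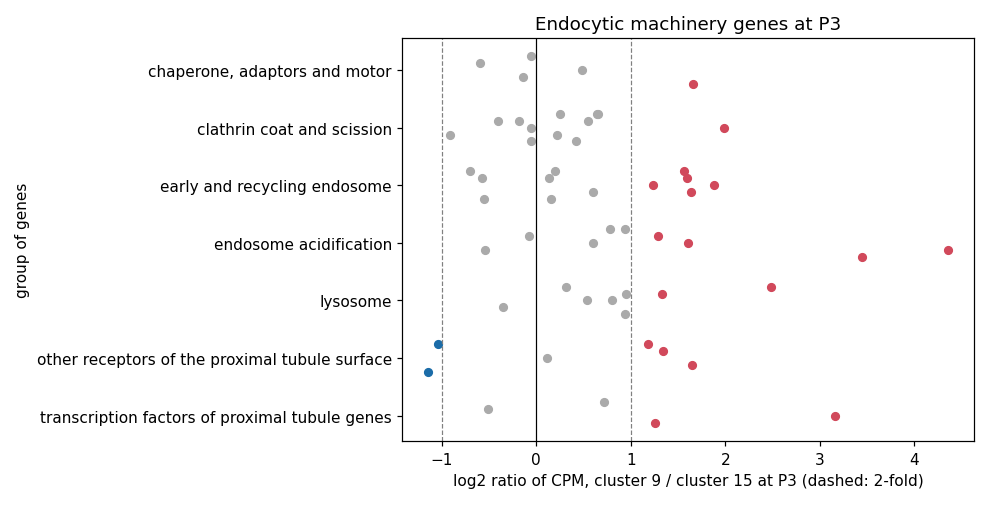
Log2 ratio of CPM between cluster 9 and cluster 15 at P3 for each tested gene of the endocytic machinery list, by group, with at least 2-fold higher genes in red, at least 2-fold lower genes in blue, others in grey and dashed lines at 2-fold. The vertical spread within a group has no meaning, and 18 points are red and 2 blue.

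The genes with the most similar pattern over the 25 groups of nuclei, among 8631 genes with at least 50 CPM in one group, differed between the members. Slc47a1, Gm16311 and Slc34a1 were closest to Lrp2, with r of 0.98, 0.97 and 0.97, and Gm16311, Acsm1 and A1cf to Cubn, each at 0.98. Hdc, Acsm2 and Slc22a19 were closest to Amn, at 0.95, 0.94 and 0.93. Osbpl8 (0.96), Tbc1d13 (0.92) and Cmah (0.92) were closest to Dab2. For Clcn5 the closest were Rps6ka1 (0.89), Plcg2 (0.88) and Prkcd (0.88), each highest in intercalated cell-like nuclei. Among the 5 genes themselves, r was 0.86 between Lrp2 and Amn, 0.75 between Lrp2 and Dab2, and 0.04 between Lrp2 and Clcn5.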

How the data were processed

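Nuclei were isolated from snap-frozen, pooled kidneys and sequenced with the 10x Genomics Chromium 3′ kit, 1 library at E18.5 and 1 at P3. The deposited values are counts of UMIs per gene and barcode without normalization, which the authors made with Cell Ranger. The file headers give release 7.0.0 for the earlier library and 5.0.1 for the later one. The submitters' processing notes name 5.0.1 and the mm10 build for both. Whether intronic reads were counted is not given in the sources used here. No columns of other samples were present.

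Barcodes were removed where log UMIs or log genes fell short of the median by over 3 median absolute deviations, or where the mitochondrial share exceeded it by 3 deviations and 0.5 percentage points, which kept 21270 of 21600 barcodes with 77321253 UMIs at E18.5 and 11765 of 12216 with 70055219 UMIs at P3. Depth limits single nuclei to a median of 3132.5 and 4534 UMIs. Scrublet (scanpy 1.11.5) marked doublets (16.4% and 16.8% of nuclei) and these were kept. Size factors came from scran 1.30.0 (R 4.3.3). The 2000 most variable genes, without the 5 genes and the 58 machinery genes, gave 50 principal components, a nearest-neighbour graph with 10 neighbours (bluster 1.12.0) and Walktrap clusters. A marker was raised at 10 or more UMIs and 2-fold over other nuclei with 10 CPM added to both sides. A cluster was named where at least 3 markers of a list were raised and no other list came above 0.8 of its share, and stayed unnamed where over 50% of its nuclei were doublets or where it raised hemoglobin genes but not Alas2. The distal nephron precursor list did not compete with the loop and distal tubule lists. Immature and maturing needed at least 3 raised markers, 50% of the list, and more raised markers than the other list. The raised share of the other list could also be at most 0.8 of that of the named list. These naming rules were set after clusters were seen, and the members and all lists were chosen with earlier results of these data known.

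Levels are sums of UMIs per class as CPM with exact Poisson intervals, and shares carry exact Clopper-Pearson intervals. Ratios of levels carry exact conditional binomial intervals, and ratios of joint detection carry exact Poisson intervals of the joint count. A gene was called at 2-fold with at least 10 CPM on one side. With 1 library per age no test between libraries was made. Because no P3 sub-cluster could be named immature or maturing, the P3 comparison used clusters of the whole library, which had been planned as an alternative. Genes named are the 5 genes, the markers, the 2 highest and 2 lowest machinery genes of each group at P3, and the 3 genes most similar to each of the 5. Other machinery genes are named where a count was 5 or fewer, and leading genes of clusters where a cluster was described, both after their values were seen. Some genes of these lists and 1 motif are not reported here. Alternatives removed doublets, set quality limits on linear values, used Leiden clusters or 20 neighbours, and changed scaling, background, minimum level and thinning. Ratios and intervals were tested on simulated Poisson sums with set ratios. These held no spread between nuclei, doublets, free RNA or library difference, so they check the calculation only. Coordinates are from GENCODE M21 and promoter windows from RefSeq, both GRCm38, and all 5 genes matched. Python 3.11.15, numpy 2.4.6, scipy 1.17.1 and pandas 2.3.3 were used.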

Additional observations from a re-analysis of the deposited data

How the results depend on the processing

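The number of genes highest in proximal tubule-like nuclei stayed at 4 at both ages under all 7 alternatives. An alternative that only subtracts a background level keeps the order of the classes and could not change this count. At E18.5, 1 gene was at least 2-fold higher in maturing than in immature nuclei. That count was 3 with linear quality limits, Leiden clusters or 20 neighbours. With the states taken from clusters of the whole library it was 4 without doublets, 2 with linear quality limits and 3 with Leiden clusters, and with all proximal tubule-like nuclei against cluster 8 it was 4, an alternative added after the data were seen. The main clusters gave no such value from the whole library at E18.5, nor did the sub-clusters without doublets. At P3 the count was 3, and 1 where lists were compared by share of markers, also added later. Of the alternative counts in this paragraph, only that against cluster 8 has its share of all genes given above. The others cannot be set against the shares of the main comparisons. The number of machinery genes at E18.5 was 5, and 8 with Leiden clusters. The number of genes at least 2-fold apart between the ages was 1, and 0 with doublet-rich clusters kept, an alternative added later under which the ratios of Lrp2 (0.91) and Cubn (0.89) reversed. The causes were not tested beyond the changed membership of the classes. Subtracting the leukocyte-like level, Clcn5 in intercalated cell-like nuclei was 396 CPM at E18.5 and 114 CPM at P3, by construction lower since leukocyte-like nuclei hold Clcn5 themselves. No paired analysis was possible because each age has 1 library. Depth limits the joint detection of Amn and Clcn5, of which 3 and 4 nuclei had both at 1000 UMIs, and at P3 the ratio went from 0.78 to 1.28 with 2000 UMIs.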

Other observations

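A large part of the UMIs of these genes lay in nuclei left unnamed, which were 52.3% of nuclei at E18.5 and 36.8% at P3. They held 49.5% and 40.7% of all Lrp2 UMIs, 47.0% and 40.2% of those of Cubn, and 48.9% and 39.6% of those of Dab2. For Amn they held 54.2% and 40.9%, and for Clcn5 58.6% and 44.4%. One unnamed cluster at E18.5 was cluster 3, with 2257 nuclei of which 79.0% were called doublets. It was at 598 CPM of Lrp2, 140 CPM of Cubn and 647 CPM of Dab2. At P3 the doublet-rich cluster 6, with 759 nuclei and a median of 12021 UMIs, held 1765 CPM of Lrp2. Clusters with raised hemoglobin genes and low depth, 2717 nuclei at E18.5 and 1561 at P3, held 364 and 666 CPM of Lrp2. Proximal tubule-like nuclei, 1107 of 21270 and 1304 of 11765, held 39.1% and 51.1% of all Lrp2 UMIs, 43.7% and 52.2% of those of Cubn, 34.9% and 49.7% of those of Dab2, 16% and 41.9% of those of Amn, and 6.03% and 16.3% of those of Clcn5.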
